A study of Mus musculus with 24 samples.

Results

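MHC class II molecules present peptides taken up from outside the cell to CD4+ T cells, and 10 mouse genes of this pathway were followed in whole pancreas: H2-Aa, H2-Ab1, H2-Eb1, H2-DMa, H2-DMb1, H2-DMb2, H2-Oa, H2-Ob, Cd74 and Ciita. All probes whose symbol in the platform annotation was one of these were taken, which gave 18 probes for the 10 genes, out of 45281 probes and 19057 named genes on the array. RNA came from male C57BL/6J mice bought at 3 weeks of age, housed singly and kept on a high-fat diet for 12 weeks, and each of 6 groups of 4 arrays took its treatment as the drinking fluid. AFFB was a fermented blackberry and blueberry beverage without its alcohol (8.4 mg anthocyanins per kg body weight per day), and PAE was the phenolic extract of that beverage given at 1.1 mg of anthocyanins per kg and day (0.1X), 9.0 mg (1X) and 18.9 mg (3X). The sitagliptin group received this inhibitor of dipeptidyl peptidase IV, a drug for type 2 diabetes, at 150 mg per litre of water, and the control group drank plain water. Titles name the highest extract dose 3X where the protocol has 2X, and all groups, water included, ate the high-fat diet. Whether the 4 arrays of a group come from 4 mice is not said in the labels, and the p-values below speak only for the spread among these arrays, part of which may be technical.

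In an antigen-presenting cell, H2-Aa with H2-Ab1 forms the class II molecule I-A, and H2-Eb1 is the beta chain of a further class II molecule, I-E. The invariant chain Cd74 fills the binding groove of new class II molecules and guides them to endosomes. There H2-DM, made of H2-DMa with H2-DMb1 or H2-DMb2, exchanges the remnant of Cd74 for a peptide, and H2-O, made of H2-Oa and H2-Ob, restrains H2-DM. Ciita, the class II transactivator, is the coactivator on which transcription of the family depends. B cells, dendritic cells and many macrophages express these genes, whereas the acinar cells that make up most of the pancreas normally do not. By the RefSeq gene table of GRCm38.p6, 8 of the 10 genes lie on chromosome 17 in the order H2-Oa, H2-DMa, H2-DMb2, H2-DMb1, H2-Ob, H2-Ab1, H2-Aa and H2-Eb1, while Ciita and Cd74 lie elsewhere.

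Promoter sequence is shown for the members that have it listed, because the family is known for boxes common to its promoters. Promoters of class II genes carry an X box, bound by the RFX complex, and a Y box, bound by NF-Y, and Ciita acts through the factors assembled on them. Promoter windows of 250 bases before to 50 bases after the gene start were listed by RefSeq (GRCm38.p6) for 7 of the 10 genes, not for H2-Ab1, Cd74 and Ciita. The Y box letters TGATTGG, searched on both strands, were found in 6 of these 7 and in 7.82% of all 32851 windows of that length. The X box core AGNAAC was found in 5 of the 7 and in 48.1% of all windows. AGNAAC followed by TGATTGG at 10 to 50 bases was found in 4 of the 7 (H2-Eb1, H2-DMb1, H2-Oa and H2-Ob) and in 0.408% of all windows. H2-Oa and H2-Ob could not be measured on these arrays, so the letters are not set against the expression values. The letters searched were chosen after the sequences had been read, and a match is a description, not a binding site. The 63-base stretches around the Y box follow, 5′ to 3′ on the strand of the gene, with AGNAAC (where it lay at that distance) and TGATTGG in capitals. They stand at chr17:34287859-34287921 (- strand) for H2-Aa and, on the + strand, at chr17:34305758-34305820 for H2-Eb1, chr17:34153080-34153142 for H2-DMb1, chr17:34145109-34145171 for H2-DMb2, chr17:34092286-34092348 for H2-Oa and chr17:34238798-34238860 for H2-Ob.
H2-Aa: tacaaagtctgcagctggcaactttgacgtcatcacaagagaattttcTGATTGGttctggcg
H2-Eb1: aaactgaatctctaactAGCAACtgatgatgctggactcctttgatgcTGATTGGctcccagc
H2-DMb1: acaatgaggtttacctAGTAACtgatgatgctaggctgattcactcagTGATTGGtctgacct
H2-DMb2: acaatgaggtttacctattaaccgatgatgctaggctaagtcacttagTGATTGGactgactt
H2-Oa: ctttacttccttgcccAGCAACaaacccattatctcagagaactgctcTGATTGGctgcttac
H2-Ob: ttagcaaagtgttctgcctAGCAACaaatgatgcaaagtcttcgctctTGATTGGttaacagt
The Y box began 45 (H2-Oa) to 92 (H2-DMb2) bases before the annotated gene start, and where both letter groups were present 23 to 26 bases separated them.

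On each array 10888 to 14060 of all probes were detected, that is, had a detection p under 0.05 against the negative control probes, and the median signal was 81.3 to 98.7. Detection on at least 4 arrays was required for testing, and 15328 probes passed, among them 12 probes of 7 class II genes. All 8 kept acinar marker genes were detected on all 24 arrays, with a list mean of 13.9 to 14.2 log2 units per array, as the tissue label implies. Arrays AFFB 2, PAE 1X 2 and sitagliptin 3 stood apart from the rest on the first principal component of all kept probes (38.8, 56.1 and 33.7, against at most 19.0 for the others), and class II medians and counts that move by over 1.5 times without them are given both ways.

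The chains of the class II molecule and the invariant chain were well measured by most of their probes, and the regulator and H2-O were not. H2-Ab1 probes 1 and 2, H2-Eb1 and Cd74 probes 1 and 2 were detected on 24 of 24 arrays, H2-Aa on 23 and H2-DMa probe 1 on 20. H2-Ab1 probe 3 was detected on 22 arrays and Cd74 probe 3 on 17. H2-DMb1 was detected on 10 arrays, H2-DMb2 probe 1 on 9 and H2-DMa probe 2 on 6, so that their values lie near the background. The 6 probes that did not pass were H2-DMb2 probe 2, both H2-Oa probes, the H2-Ob probe and both Ciita probes. Of these, Ciita probe 1 was detected on 1 array, water 2, at a log2 intensity of 4.70, and the other 5 on none. Transcripts of Ciita, H2-Oa and H2-Ob were therefore not measurable at this sensitivity, which does not show that they are absent. H2-Ea, the alpha chain of I-E that C57BL/6 mice do not make, was detected on 0 of 24 arrays, so that the H2-Eb1 transcript was measured in a strain without surface I-E.

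In AFFB pancreas the class II genes had lower means than in water pancreas, but no probe passed the test over the whole array. Cd74, the invariant chain, had log2 intensities of 6.75, 7.27, 7.75 and 6.76 (probe 1) in AFFB pancreas, against 7.64, 8.59, 8.08 and 7.98 in water pancreas. Only AFFB 3 reached into the range of the water arrays. The means were 7.13 ± 0.48 in AFFB and 8.07 ± 0.39 in water pancreas (SD, n = 4 each), a log2 difference of -0.94 with a standard error of 0.35, or 1.92-fold lower (95% confidence interval of the log2 difference, -1.67 to -0.21). limma gave an unadjusted p of 0.014 and a Benjamini-Hochberg adjusted p of 0.919 over all 15328 probes. Cd74 probe 2 differed by -0.96 log2 units and probe 3 by -0.60. Probe 3 was detected on 1 of 4 AFFB arrays and on all 4 water arrays, so its AFFB mean lies near the background.

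H2-Ab1, the beta chain of I-A, had log2 intensities of 5.91, 7.13, 7.25 and 6.52 (probe 1) in AFFB pancreas, against 6.86, 7.60, 7.45 and 7.21 in water pancreas. AFFB 1 and AFFB 4 lay below every water array, and AFFB 2 and AFFB 3 lay within their range. The log2 difference was -0.58 (SE 0.35, limma adjusted p = 0.919), and it was -0.32 without AFFB 1. Its partner H2-Aa had 4.72, 5.39, 5.63 and 4.87 in AFFB pancreas, against 5.47, 5.45, 5.88 and 5.46 in water pancreas, a difference of -0.41 (SE 0.26) that was -0.27 without AFFB 1. H2-Eb1 had 5.30, 6.41, 6.12 and 5.89 in AFFB pancreas, against 6.32, 6.69, 6.64 and 6.35 in water pancreas, a difference of -0.57 (SE 0.27) that was -0.36 without AFFB 1. For both genes the groups overlapped through AFFB arrays 2 or 3.

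The peptide exchange factor H2-DM gave mixed values. H2-DMa probe 1 had 4.35, 4.96, 4.54 and 4.78 in AFFB pancreas, against 5.29, 5.50, 4.76 and 5.18 in water pancreas, a log2 difference of -0.53 (SE 0.22, limma adjusted p = 0.919). It was detected on 2 of 4 AFFB and on all 4 water arrays. H2-DMb1 averaged 4.62 ± 0.22 in AFFB and 4.58 ± 0.14 in water pancreas (SD, n = 4 each), a difference of 0.04, and H2-DMb2 probe 1 differed by -0.18. H2-DMa probe 2 was not detected on any AFFB or sitagliptin array, and no fold is given for it because the lowest detectable signal is above its mean in water.

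Taken by gene, with the probe of highest mean for each, 6 of the 7 measured class II genes had a lower mean in AFFB than in water pancreas and 1, H2-DMb1, a higher one. The median log2 difference of the 7 genes was -0.53, the value of H2-DMa probe 1, against 0.003 over all 15328 probes tested. Of the 12 class II probes, 0 had an adjusted p under 0.05 in limma, as did 0% of all probes in this comparison. An unadjusted p under 0.05 with a lower mean was found for 6 of the 12 (H2-Ab1 probe 3, H2-Eb1, H2-DMa probe 1 and all 3 Cd74 probes), against 2.3% of all probes. The 12 probes stand for 7 genes that share cells, so these are not 12 separate observations. All 4 AFFB arrays lay below all 4 water arrays for 2 of the 12, H2-Ab1 probe 3 and Cd74 probe 3, against 1.92% of all probes. Of the 4 AFFB arrays, 3 detected H2-Ab1 probe 3 and 1 detected Cd74 probe 3. The count of 6 was 2 without water 2, 4 without AFFB 1 and 2 to 7 over the arrays left out in turn, and 7 without the 3 arrays that stood apart. The median was -0.32 without AFFB 1 and -0.63 without the 3 arrays. In bulk tissue, fewer cells of a type and less RNA per cell cannot be told apart.

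**Figure D1:**
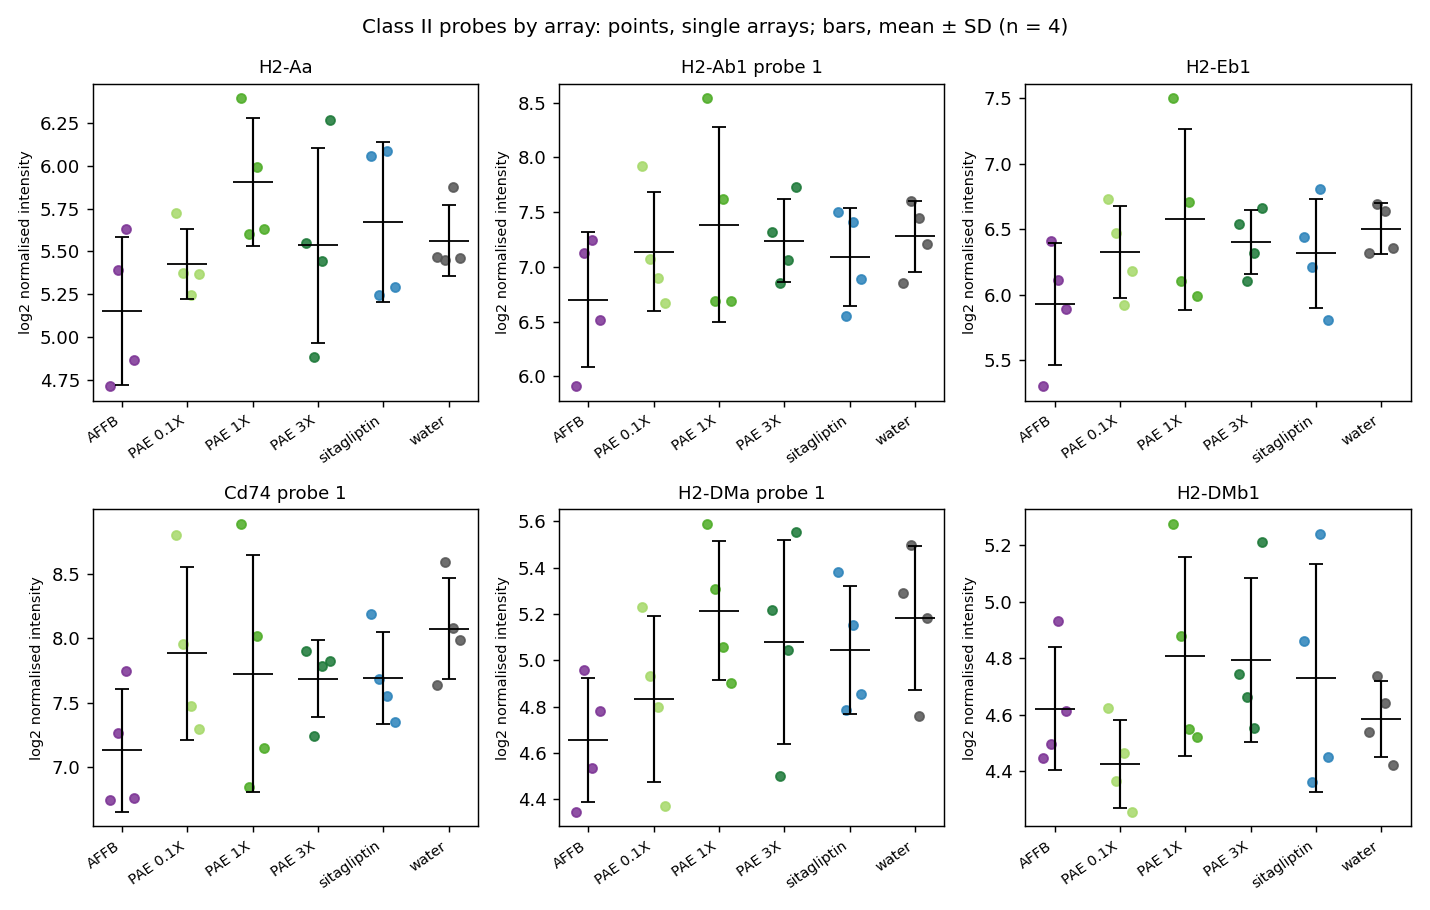
Log2 normalised intensity (y axis) of 6 class II probes in each group (x axis), with single arrays as points and bars for the mean ± SD (n = 4). For Cd74 probe 1 the AFFB mean of 7.13 is the lowest of the 6 groups and the water mean of 8.07 the highest, and single arrays of most groups overlap.

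The other treatments had class II medians nearer to 0 than AFFB, and by gene their values carried both signs except with PAE 0.1X. With PAE 0.1X the 7 genes had a median log2 difference of -0.16 from water, with all 7 means below water, from -0.35 (H2-DMa probe 1) to -0.12 (H2-DMb2 probe 1). H2-DMb1 was not detected on any PAE 0.1X array, so its sign there is that of background values, and over the other 6 genes the median was also -0.16, with 6 below water. Without PAE 0.1X 1, the highest array of its group for Cd74 probe 1, the median was -0.31. In that fit 2 of 12 probes had an unadjusted p under 0.05 (share of all probes not given). With PAE 1X the median was 0.07, with 5 genes above water and 2 below, from -0.35 (Cd74 probe 1) to 0.34 (H2-Aa). Without PAE 1X 2 the PAE 1X median was 0.20, and the Cd74 probe 1 difference was -0.05. With PAE 3X the median was -0.10, with 6 genes below water, from -0.38 (Cd74 probe 1) to 0.21 (H2-DMb1). With sitagliptin the median was -0.14, with 5 genes below water, from -0.38 (Cd74 probe 1) to 0.14 (H2-DMb1), the last of which was -0.03 without sitagliptin 3. With single arrays left out, the median ran from -0.23 to 0.27 with PAE 1X, -0.20 to 0.09 with PAE 3X and -0.23 to -0.02 with sitagliptin. All 5 contrasts share the same 4 water arrays, so their signs are not independent of each other. The medians over all probes lay between -0.004 (PAE 0.1X) and 0.016 (PAE 1X).

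No class II probe passed in these comparisons either. At an adjusted p under 0.05 in limma, 0 of 12 class II probes passed with PAE 0.1X (0% of all probes), with PAE 1X (0.00652%), with PAE 3X (0.0457%) and with sitagliptin (0%). At an unadjusted p under 0.05 the count was also 0 of 12 in each, against 3.78% of all probes with PAE 0.1X, 6.5% with PAE 1X, 5.03% with PAE 3X and 2.74% with sitagliptin. Single arrays weighed on these counts too: without PAE 1X 1 the PAE 1X count was 2 of 12, both lower, and without the 3 arrays that stood apart the PAE 3X count was 1 of 12. Shares of all probes are not given for these fits with arrays left out. The 95% intervals remain wide. That of Cd74 probe 1 ran from -0.92 to 0.54 log2 units with PAE 0.1X, -1.07 to 0.38 with PAE 1X, -1.11 to 0.34 with PAE 3X and -1.11 to 0.35 with sitagliptin, so that these values do not show that the gene stayed level. The moderated F test over all 5 treatments gave 0 of 12 class II probes at an adjusted p under 0.05 (0.104% of all probes) and 0 of 12 at an unadjusted p under 0.05 (4.31%).

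**Figure D2:**
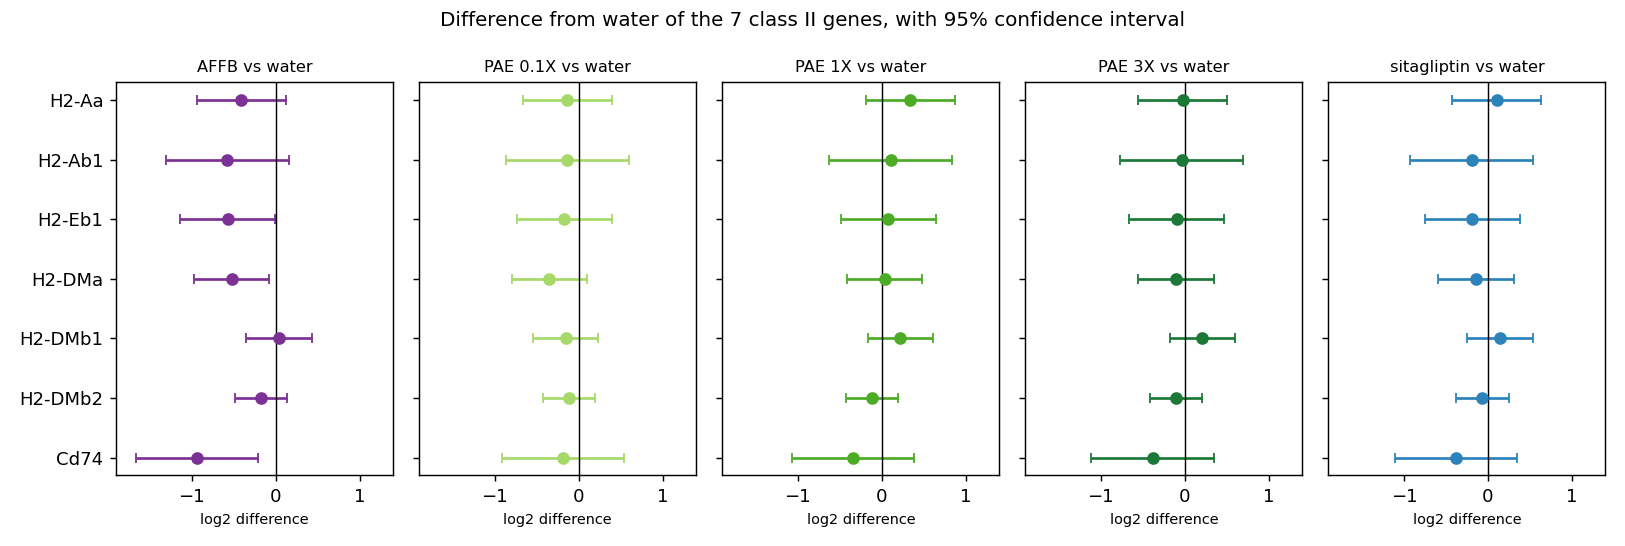
Log2 difference from water (x axis) of the 7 measured class II genes (y axis, the probe of highest mean for each) with 95% confidence intervals, 1 panel per treatment. In the AFFB panel 6 of 7 points lie left of 0, with Cd74 farthest at -0.94. There the intervals of H2-Aa, H2-Ab1, H2-DMb1 and H2-DMb2 cross 0, and those of H2-Eb1, H2-DMa and Cd74 do not. In the other panels every interval crosses 0. The intervals are not adjusted for the number of probes. H2-DMb1 was not detected on any PAE 0.1X array.

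Across the extract doses no class II gene followed the dose in a way that passed the test. H2-Aa had means of 5.56 ± 0.21 in water, 5.43 ± 0.20 at 0.1X, 5.91 ± 0.37 at 1X and 5.54 ± 0.57 at 3X (SD, n = 4 each). Cd74 probe 1 had 8.07 ± 0.39 in water, 7.88 ± 0.67 at 0.1X, 7.73 ± 0.92 at 1X and 7.69 ± 0.30 at 3X. These Cd74 means go down in dose order, but each step is smaller than the larger SD of the groups on either side. The slope was -0.13 log2 units per dose step (SE 0.11, limma adjusted p = 0.878), and the median slope of the 7 genes was 0.007. Without the 3 arrays that stood apart the median slope was 0.012. Of the 12 class II probes, 0 passed at an adjusted p under 0.05 (0.157% of all probes) and 0 at an unadjusted p under 0.05 (6.88%).

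AFFB and PAE 1X carry nearly the same anthocyanin dose, 8.4 and 9.0 mg per kg per day, so this pair sets the whole beverage against its phenolic extract. All 7 class II genes had a lower mean in AFFB than in PAE 1X pancreas, with a median log2 difference of -0.59, against -0.009 over all probes. H2-Aa had 4.72, 5.39, 5.63 and 4.87 in AFFB pancreas, against 6.39, 5.60, 5.99 and 5.63 in PAE 1X pancreas, a difference of -0.75 (SE 0.26, 95% interval -1.28 to -0.22, limma adjusted p = 0.933). The groups overlapped at AFFB 3, which lay just above both PAE 1X 2 and PAE 1X 4. H2-Eb1 averaged 5.93 ± 0.47 in AFFB and 6.58 ± 0.69 in PAE 1X pancreas (SD, n = 4 each), a difference of -0.65 (SE 0.27), and H2-DMa probe 1 differed by -0.56 (SE 0.22). These 3 of 12 probes had an unadjusted p under 0.05 with a lower mean, against 2.59% of all probes, and 0 of 12 had an adjusted p under 0.05, against 0.00652%. The AFFB arrays are those of the comparison with water, so neither result backs up the other. PAE 1X 1 weighed on the values: without it the median was -0.30 and the count 1 of 12. Without PAE 1X 2 the count was 9 of 12, and without all 3 arrays that stood apart it was 9 with a median of -0.93, still with 0 adjusted calls. The share of all probes is not given for the fits with arrays left out, so these counts have no background beside them.

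Most of the variation in class II transcripts lay between arrays of the same group. The groups accounted for 8.56% (H2-DMb2 probe 1) to 32.2% (H2-DMa probe 1) of the variance of a kept class II probe. The median over all kept probes was 18.8%. H2-DMb2 probe 1 and H2-Ab1 probes 1 (16.6%) and 2 (18.2%) lay below that median, and the other kept class II probes lay above it. The within-group SD was 0.56 log2 units for H2-Ab1 probe 1 and 0.56 for Cd74 probe 1, against a median of 0.25 over all kept probes, and 7.82% of all kept probes had a larger SD than the median class II probe. From the lowest to the highest of the 24 arrays, H2-Ab1 probe 1 spanned 6.19-fold, H2-Eb1 4.60-fold and H2-DMb2 probe 1 1.54-fold.

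The same few arrays stood at the ends for most of these genes. PAE 1X 1 was the highest of 24 arrays for 6 of the 7 genes, with 8.54 for H2-Ab1 probe 1, 8.89 for Cd74 probe 1 and 7.50 for H2-Eb1. AFFB 1 was the lowest for 5 of the 7, and AFFB 4 was among the lowest 3 for 5 of the 7. PAE 0.1X 1 was also high for Cd74 probe 1, at 8.80, while the other PAE 0.1X arrays had 7.96, 7.48 and 7.29. A group mean of 4 arrays thus rested in part on single high or low arrays. Without PAE 1X 1, the median difference of PAE 1X from water was -0.23 in place of 0.07.

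**Figure D3:**
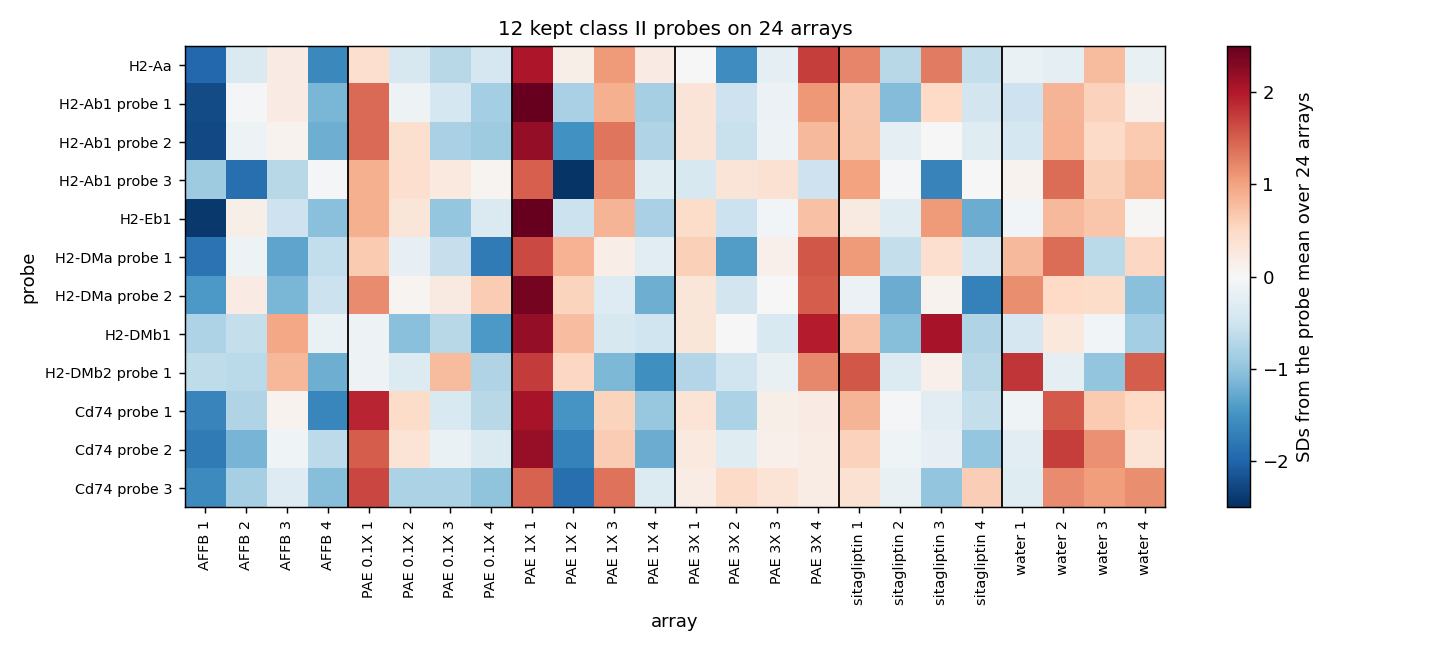
Each of the 12 kept class II probes (y axis) on each of the 24 arrays (x axis), coloured by its distance from the probe's mean over all arrays in SDs. AFFB 1 is low and PAE 1X 1 high in nearly every row, and the colours run in columns more than in blocks of groups.

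Across the 24 arrays the members varied together, most closely the 4 genes of the class II molecules and the invariant chain. The 6 pairs among H2-Aa, H2-Ab1, H2-Eb1 and Cd74 had Pearson correlations of 0.62 to 0.92 over 24 arrays, and 0.65 to 0.90 once the group means had been subtracted. Over all 21 pairs of the 7 genes the correlations were 0.31 to 0.92, with a median of 0.62, and H2-DMb1 with Cd74 gave the lowest. These are descriptions, since all values of an array share its library, its normalization and its mix of cells.

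The 3 probes for H2-Ab1 gave different patterns over the arrays. Probes 1 and 2 correlated at 0.94 over 24 arrays, whereas probe 3 correlated with probe 1 at only 0.46 (0.67 over the 21 arrays without the 3 that stood apart). Probe 3 had 4.73 on AFFB 2, 4.34 on PAE 1X 2 and 4.89 on sitagliptin 3, the lowest values of those groups, while probe 1 had 7.13, 6.69 and 7.41 there. The largest AFFB difference from water among the 12 probes, -1.11 (SE 0.42) for H2-Ab1 probe 3, includes such an array, and it was -0.87 without AFFB 2. The 3 Cd74 probes correlated with each other at 0.80 to 0.95.

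**Figure D4:**
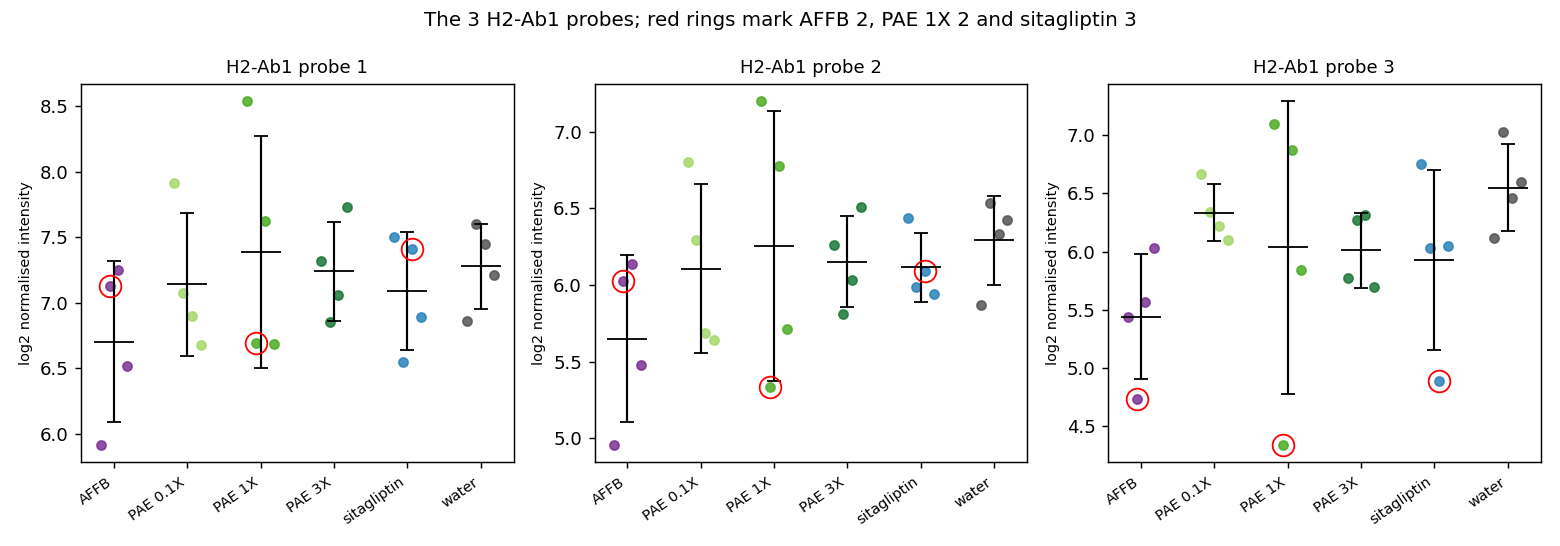
Log2 normalised intensity (y axis) of the 3 H2-Ab1 probes in each group (x axis), points for arrays and bars for the mean ± SD (n = 4), with red rings around AFFB 2, PAE 1X 2 and sitagliptin 3. The ringed arrays are the lowest of their groups for probe 3, at 4.73, 4.34 and 4.89, and lie well within the range of all 24 arrays for probe 1.

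The genes most like the class II core, by the within-group correlation with the mean standardised level of H2-Aa, H2-Ab1, H2-Eb1 and Cd74 over 24 arrays, were Lyz1 (0.88), Prr33 (0.86), Coro1a (0.85), Plac8 (0.85), Laptm5 (0.84), Cotl1 (0.82), Nnmt (0.81), Cd52 (0.79), Tbc1d10c (0.79) and Arhgdib (0.78). The 99th percentile of this correlation over all kept probes was 0.63. Lyz1 encodes a lysozyme, Coro1a an actin-binding protein of leukocytes, Laptm5 a lysosomal membrane protein of blood cells and Cd52 a leukocyte surface glycoprotein. Laptm5 differed by -0.51 (SE 0.32) between AFFB and water pancreas, with a limma adjusted p of 0.919. The AFFB differences of these 10 genes ran from -0.55 (Arhgdib) to 0.16 (Cotl1, which alone was higher). Plac8 and Tbc1d10c differed little, by -0.06 and -0.07, and Cd52 by -0.24. No p is given for a likeness that was picked as the highest among all genes.

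Markers of leukocytes moved with the class II genes from array to array. The array mean of 7 pan-leukocyte markers (Laptm5, Coro1a, Cd52, Cd53, Lcp1, Rac2 and Arhgdib) correlated with H2-Ab1 at a Pearson r of 0.83 and a Spearman rho of 0.84 over 24 arrays, with adjusted p of 0.00056 and 0.00042 in permutation tests of 100000 resamples over 84 pairs of list and gene. Without the 2 arrays farthest from the median of the markers, PAE 0.1X 1 and PAE 1X 1, r was 0.74, and within groups it was 0.84. Cd74 had r = 0.82 and rho = 0.76 (adjusted permutation p = 0.00056 and 0.0014), with r = 0.71 without the same arrays and 0.84 within groups. By Pearson r, 6 of the 7 genes passed with these markers, all but H2-DMb2 (r = 0.27). Of the 7 markers, 4 (Laptm5, Coro1a, Cd52 and Arhgdib) are also among the 10 genes most like the class II core. All lists were chosen with earlier results of these data known, and the values of an array share its library and normalization. The permutation p-values here and below are therefore descriptions.

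Over all arrays macrophage markers came next, with a median r of 0.59 over the 7 genes, against 0.63 for pan-leukocyte and 0.51 for adipocyte markers. The array mean of 9 macrophage markers correlated with 6 of the 7 class II genes at an adjusted p under 0.05 over all arrays and with 2 by rank. Within groups macrophage, T and NK cell, lymph node stroma and adipocyte markers each passed with 3 genes, and pan-leukocyte markers with 6. H2-Ab1 and Cd74 both had r = 0.68, with rho = 0.67 and 0.70 (adjusted permutation p = 0.0044 for each r, and 0.0084 and 0.0061 for the rho). Without PAE 1X 1 and water 3, r was 0.55 for H2-Ab1 and 0.59 for Cd74. By Pearson r, adipocyte markers passed with 4 genes, lymph node stroma markers with 3, T and NK cell markers with 2, and plasma cell markers with 1. Acinar and duct markers each passed with 1 gene, H2-DMb1, with a negative sign, at r = -0.53 for the acinar list. For adipocyte, lymph node stroma, T and NK cell, plasma cell, acinar and duct markers no pair passed by rank. Dendritic cell, islet, endothelial and fibroblast lists passed with 0 genes by either correlation.

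**Figure D5:**
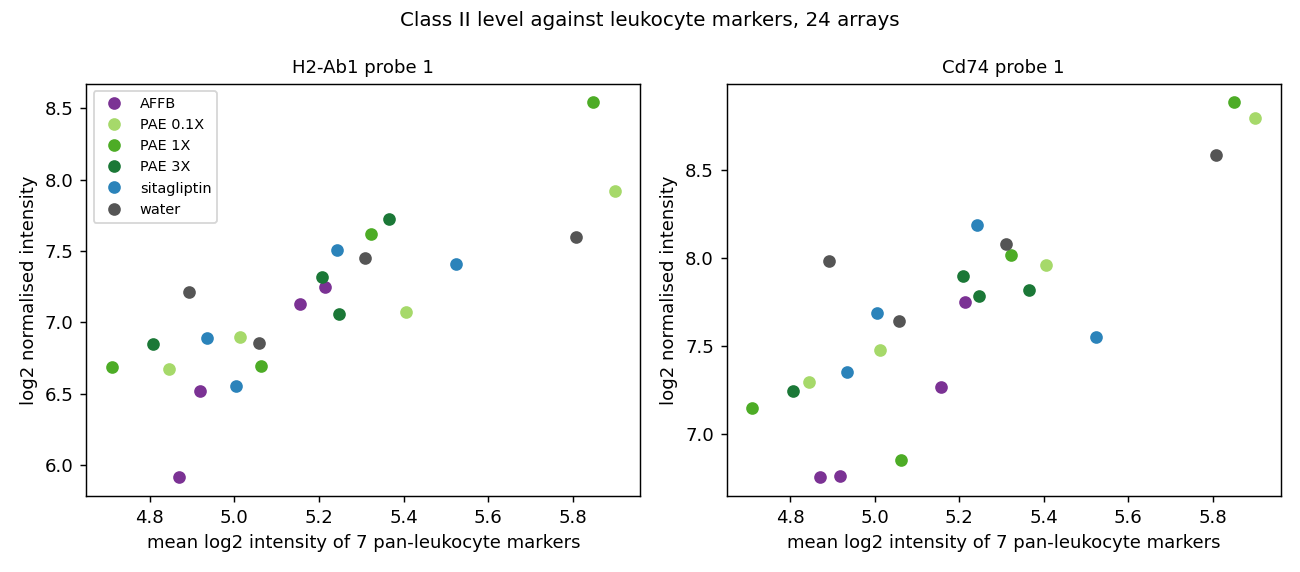
Log2 normalised intensity of H2-Ab1 probe 1 and Cd74 probe 1 (y axes) against the mean log2 intensity of 7 pan-leukocyte markers (x axes), 1 point per array, coloured by group. The points rise together (r = 0.83 and 0.82), and AFFB arrays 1 and 4 lie at the lower left with markers at 4.87 and 4.92.

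Between AFFB and water pancreas these markers differed as follows. The pan-leukocyte mean was 4.87 to 5.21 on AFFB arrays and 4.89 to 5.81 on water arrays, with 4 of the 7 genes lower in AFFB and 0 called. The macrophage mean was 4.95 to 5.42 on AFFB and 5.20 to 5.61 on water arrays, with 7 of the 9 lower and 0 called. This was not particular to AFFB: 8 of the 9 were lower than water with PAE 0.1X, 1X and 3X each, and 7 with sitagliptin. The median macrophage difference was -0.17 with AFFB, -0.15 with PAE 0.1X, -0.15 with PAE 1X, -0.17 with PAE 3X and -0.21 with sitagliptin. The adipocyte mean of 4 kept genes was 4.27 to 4.68 on AFFB and 4.44 to 6.03 on water arrays, with all 4 lower and 0 called. The value of 6.03 was that of water 3, and the next highest water array had 4.83. These genes were detected on only 4 (Car3) to 10 (Adipoq) arrays. Lower adipocyte markers were not particular to AFFB either. Their median difference from water was -0.52 with AFFB, -0.28 with PAE 0.1X, -0.21 with PAE 1X, -0.36 with PAE 3X and -0.38 with sitagliptin. The duct mean of 4 genes (Krt19, Krt7, Sox9 and Muc1) was 6.77 to 7.10 on AFFB and 7.17 to 7.39 on water arrays, without overlap, with all 4 lower and 0 called. No share over other features is given for this lack of overlap. The median duct difference from water was -0.26 with AFFB, -0.10 with PAE 0.1X, -0.37 with PAE 1X, -0.31 with PAE 3X and -0.04 with sitagliptin. Lower duct markers were thus not particular to AFFB. The endothelial mean was 4.81 to 5.38 on AFFB and 5.08 to 5.35 on water arrays, with all 4 genes lower. The T and NK cell mean went the other way, 6.20 to 6.63 on AFFB and 6.20 to 6.36 on water arrays, with all 4 genes higher and 0 called. Lower in AFFB were also 4 of 5 lymph node stroma, 4 of 5 fibroblast and stellate, 2 of 3 plasma cell, 2 of 3 dendritic cell, 6 of 8 islet and 5 of 8 acinar markers, with 0 called. With the macrophage mean as a covariate the median AFFB difference of the 7 class II genes was -0.16 in place of -0.53, with the pan-leukocyte mean it was -0.28, and in both 0 of 12 probes passed. The unadjusted count was 1 of 12 and 5 of 12, and the share of all probes is not given for these fits. The median of AFFB against PAE 1X was -0.54 with the macrophage and -0.42 with the pan-leukocyte covariate, in place of -0.59. The part of cell composition in the AFFB result was not tested beyond these values.

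The cells best known for class II were hardly measurable on these arrays. Of 10 B cell markers on the array only Cd79b was kept, detected on 8 arrays, while Ms4a1, Pax5 and Cr2 were each detected on 1 or 2. Of 12 dendritic cell markers 3 were kept (Flt3, Zbtb46 and Ccr7), and Itgax, Xcr1, Clec9a and Cd209a were detected on 0 arrays. Of 13 T and NK cell markers 4 were kept, and Cd3e and Cd8b1 were detected on all 24 arrays, while Cd4, Cd8a, Cd2 and Cd5 were detected on 0, so that the defining markers of that list disagreed. Ptprc, the gene of the leukocyte antigen CD45, was detected on 1 array.

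The rest of the presentation machinery, in 5 lists with 48 kept genes, showed 0 calls at an adjusted p under 0.05 in limma in each of the 5 comparisons with water, in AFFB against PAE 1X and in the dose trend, where 0% to 0.157% of all probes were called. In AFFB against water, 6 of the 48 had an unadjusted p under 0.05 with a lower mean, 4 of them in class I presentation, against 2.3% of all probes, and 0 with a higher one, against 2.73%. Of the factors that act on class II promoters or on class II turnover, 7 of 15 genes were kept, among them Rfxap of the RFX complex and Nfyb and Nfyc of NF-Y. Their median AFFB difference from water was 0.08, with 5 of 7 higher. The 3 of smallest p against water in any treatment were Marchf8, a ubiquitin ligase with class II among its targets, at 0.24 (SE 0.15) with PAE 1X, Nfyb at -0.25 (SE 0.17) with PAE 3X, and Spi1, the myeloid transcription factor PU.1, at 0.29 (SE 0.24) with sitagliptin, where it was detected on 4 arrays, and on 2 of the water arrays. Their limma adjusted p-values were 0.794, 0.999 and 1.00.

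Antigen processing genes, which make peptides in endosomes, had 11 of 12 genes kept and a median AFFB difference of -0.09 from water. Ifi30, a reductase that opens disulfide bonds of antigens, averaged 6.07 ± 0.40 in PAE 3X and 6.73 ± 0.24 in water pancreas (SD, n = 4 each), a difference of -0.66 (SE 0.22, limma adjusted p = 0.701), with all 4 PAE 3X arrays below the water mean. Ctsz, a cathepsin, differed by 0.54 (SE 0.21) with PAE 1X. Lgmn, an asparaginyl endopeptidase, differed by -0.41 (SE 0.17) with AFFB, where 2 of 4 arrays detected it. Each of these was also uncalled, with limma adjusted p-values of 0.692 and 0.919.

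Class I presentation, which shows peptides from inside the cell to CD8+ T cells and is active in nearly all cells, had 15 of its 16 kept genes lower in AFFB than in water pancreas, with a median log2 difference of -0.31 and 0 calls. B2m, the light chain of class I, averaged 8.48 ± 0.39 in AFFB and 9.20 ± 0.47 in water pancreas (SD, n = 4 each), a difference of -0.72 (SE 0.27, limma adjusted p = 0.919). Psmb8, an immunoproteasome subunit chosen after its values were seen, differed by -0.68 (SE 0.28). H2-Q7, a nonclassical class I chain, differed by -0.49 (SE 0.19) with AFFB, and Tapbpl, a peptide editor for class I, by -0.44 (SE 0.15) with sitagliptin. The median of the class I genes was -0.27 with sitagliptin, -0.08 with PAE 0.1X, 0.02 with PAE 1X and -0.01 with PAE 3X. Over all probes tested, 49.4% were lower in AFFB than in water pancreas.

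Genes of the interferon gamma axis, which induces class II through Ciita in many cell types, had 8 of the 13 on the array kept, with 6 lower in AFFB than in water pancreas and a median of -0.16. Gbp3, an interferon-induced GTPase, averaged 4.63 ± 0.09 in AFFB and 5.32 ± 0.18 in water pancreas (SD, n = 4 each), a difference of -0.68 (SE 0.22, limma unadjusted p = 0.0045, adjusted p = 0.919). It was detected on 2 of the 4 AFFB arrays and on all 4 water arrays, so the AFFB mean lies at the detection limit. Gbp2 of the same family differed by -0.52 (SE 0.29), and Irgm1, a related GTPase, by 0.45 (SE 0.25) with PAE 1X. Co-stimulation genes, with 6 of 12 kept, had a median AFFB difference of -0.12. Their genes of smallest p were Cd40 with PAE 3X, Cd80 with AFFB and Icos with sitagliptin, all uncalled. Cd40 was detected on 0 of 4 PAE 3X and 2 of 4 water arrays, with measured means of 4.34 ± 0.07 and 4.79 ± 0.56 (SD, limma adjusted p = 0.970). Its water mean includes background values too, so no fold is given for Cd40. Cd80 differed by -0.31 (SE 0.20), and Icos was detected on 0 of 4 sitagliptin and 1 of 4 water arrays, so no fold is given. Ifng itself, like Cd4, was not among the kept genes.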

How the data were processed

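The deposited table gave a linear intensity and a detection p-value per probe and array, per the file headers. Total RNA was labelled with biotin for Illumina bead arrays of a single colour, per the labels. A further deposited table held log2 values made with R 3.1.2 and limma 3.22.1, per the submitters' processing notes. Its scale and centring were found by comparison: the 99th percentile of its absolute difference from the values used here was 0.0019. No source used here gives the chip of an array, so chip was not tested as a batch.

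Intensities were background-corrected with the detection p-values, quantile normalized and taken to log2 with neqc (offset 16, limma 3.58.1, R 4.3.3). Probes with detection p under 0.05 on at least 4 arrays were kept. A single limma fit of 24 arrays with group means was moderated with eBayes. Tests were two-sided, adjusted by Benjamini-Hochberg over all kept probes, and passed under 0.05. The number of arrays limits the precision.

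The class II genes and all gene lists were chosen with earlier results of these data known. Named genes were all members, the 3 of smallest p per related list, markers detected on all arrays and the 10 most similar genes. Of the markers, others are named to show what was not detected, and they were chosen after their values were seen. A gene is given by its kept probe of highest mean, and levels of different probes are not compared. Gene symbols come from the platform annotation. Alternatives changed the background correction, normalization, filter, variance model, arrays and covariates.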

Additional observations from a re-analysis of the deposited data

Results flagged for a closer look

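In 3 of the 72 combinations of a kept class II probe and a group of 4 arrays, a single array stood far from the other 3 by Dixon's test at the 95% level. Chance alone flags about 1 in 20 such groups, so a count of 3 in 72 is no more than chance gives. H2-Aa had a log2 intensity of 5.88 on water 3, while the other water arrays had 5.45 to 5.47. Cd74 probe 3 had 5.51 on PAE 0.1X 1, while the other PAE 0.1X arrays had 4.57 to 4.65. Cd74 probe 3 had 4.82 on water 1, while the other water arrays had 5.29 to 5.33.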

How the results depend on the processing

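The count of class II probes called was 0 in all 304 recomputations, over every comparison and alternative run and every array left out. The median AFFB difference from water moved from -0.53 to -0.18 without background correction, where the fold of dim probes shrinks by construction, and to -0.16 with the macrophage covariate, and it was -0.63 to -0.32 with single arrays left out. The median of AFFB against PAE 1X was -0.93 without the 3 arrays far on the first principal component and -0.80 to -0.30 with single arrays left out. That alternative and the pan-leukocyte covariate were chosen after seeing the data. Small medians changed sign: PAE 0.1X to 0.06 (macrophage covariate), PAE 3X to 0.18 (median scaling), 0.06 (macrophage or B cell covariate) and 0.01 (pan-leukocyte covariate), sitagliptin to 0.02 (B cell covariate, which rests on Cd79b alone), PAE 1X to -0.23 without PAE 1X 1, PAE 3X to 0.09 without PAE 3X 2. The median dose slope went from 0.007 to -0.004 with only the probes detected on all 24 arrays. For these sign changes the cause was not tested. Median scaling itself moved the median of all probes to 0.13 with PAE 1X and 0.16 with PAE 3X. Of 3155 recomputed differences of single probes 127 changed sign, 2 of 449 in AFFB against water, and none was called. With the replicate number as a block 0 probes were called. As each number occurs once in each group, the block cannot move a group difference, and the AFFB median of -0.53 is the same by construction. The numbers showed no clear pairing of the arrays. Over 60 pairs of arrays with the same number the mean correlation was 0.01 (-0.55 to 0.63), against -0.003 for different numbers. Of the 60 pairs 21 exceeded 0.1, and 7 of 24 arrays correlated best with their own number. These values do not settle whether arrays of the same number were handled together. The F test could not be run on only the groups compared, as it uses all 6. The unadjusted count in AFFB against water, 6 of 12, was 3 with median scaling, and that in AFFB against PAE 1X, 3 of 12, was 9 with array weights. Shares of all probes are not given for these settings.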

Other observations

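H2-Oa probe 1, for the alpha chain of H2-O, was chosen here after its values were seen. It was not detected on any array and did not pass the detection filter, and its log2 intensities were 4.54 to 4.62 on the PAE 0.1X arrays, against 4.29 to 4.54 on the water arrays. PAE 3X 1, at 4.58, lay in the same range. The groups accounted for 65.1% of its variance over the 24 arrays, against a median of 18.8% over the kept probes, to which this probe does not belong. H2-Oa probe 2 averaged 4.35 ± 0.12 in PAE 0.1X and 4.37 ± 0.15 in water pancreas (SD, n = 4 each). With no probe filter, limma called 0 of all 18 class II probes with PAE 0.1X, and no fold is given, since neither group was detected. The share of all probes called is not given for that fit.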
